A study of Mus musculus with 3 samples.

Results

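TEC gene models are provisional entries of the GENCODE mouse annotation that still await an experimental check. The models described here are the 190 Ensembl identifiers of that biotype in GENCODE M21 (GRCm38, the mm10 build) that reached at least 1 CPM (the count scaled to the library total) in at least 1 of 3 RNA-seq libraries. The annotation lists 3219 TEC models, of which 3145 have an entry among the 54232 identifiers of the files. Of these 3145, 894 were at 0 in all libraries and 2061 had counts but stayed under 1 CPM, so that 6.04% passed the threshold, as against 25.6% of all identifiers.

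The libraries came from wildtype CD1 mouse cortical neurons, 1 library for each of 3 groups. The IKVAV PA + PEDOT-S library is named for a peptide amphiphile (PA) together with PEDOT-S, a conducting polymer (the sample title writes PS2 and the library name PEDOT-S_OH, taken here as 1 material). The IKVAV PA library is named for the peptide amphiphile without it, a self-assembling material that displays the laminin-derived sequence IKVAV. The PDL control library is titled control, although its treatment field names the peptide amphiphile as for the others. Age, dose, treatment time and pooling of animals are not stated in the labels. Each library is repeat 3 of its group, so no difference below has a replicate check and no test between groups was made. The 3 comparisons share libraries and are not independent, and that of IKVAV PA + PEDOT-S with IKVAV PA is called the PEDOT-S comparison.

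A TEC model is drawn where unspliced cDNA sequences with poly(A) features cluster, and it has no established protein or function. An intron is copied as part of its host gene's precursor RNA and is removed in the nucleus by splicing. A model that lies in an intron on the host's strand therefore covers the same bases as the host's unspliced RNA, and counts per gene cannot tell these apart. The strand setting of the counting is not given, so the same may hold for a model on the opposite strand.

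All 190 members have 1 exon, with a median length of 2480 bases (472 to 30942). By position, 96 lay wholly inside the span of a protein-coding gene, 71 lay outside any such span and 23 overlapped one in part. Of the 96 inside models, 80 shared no base with an exon of the host and 16 did, and 75 were on the host's strand, which is 78.1% against 81.2% of all TEC models inside genes. Their 91 hosts were long, with a median span of 63052 bases against 27119 for the protein-coding genes compared. A host must span a whole model, which by itself favours long genes, and the hosts of all TEC models were not compared in length. Same-strand inside members lay toward the 3′ end of the host (median position 67.8% of its length from the 5′ end, against 42.3% for all such TEC models). Chromosomes 3, 5, 7 and 9 held 57.9% of the members and 43.0% of all TEC models with an entry, as against 24.2% of the protein-coding genes compared. These chromosomes were picked because they held the most members, which by itself raises the first share, so the shares show no concentration of members.

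The ends of the models differed with position, which is why some are printed here. The hexamer AATAAA, the most common poly(A) signal, was searched in the last 40 bases of each model in the GENCODE transcript sequences. It stood there in 23 of 96 inside members (24.0%), 33 of 71 outside members (46.5%) and 57.4% of 21866 protein-coding genes (longest transcript). Over all 3219 annotated TEC models the share was 20.8%. Among TEC models with an entry that are not members it was 15.8% inside and 24.6% outside, a smaller gap than among members. The reverse complement TTTATT stood in 4.17% of inside and 4.23% of outside ends. Away from the ends AATAAA stood in 2.74% and 2.90% of 40-base windows of inside and outside members. These matches are descriptions and show no site of cleavage. The last 60 bases of 4 inside models, those with the lowest bounds in the PEDOT-S comparison, are given first and those of the 4 outside models of highest level after them, from GENCODE M21 on GRCm38. Capitals mark AATAAA within the last 40 bases.
Gm44559, inside Ube3a, chr7:59262923-59262982, minus strand: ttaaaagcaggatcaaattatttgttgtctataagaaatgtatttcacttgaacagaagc
Gm44830, inside Ube3a, chr7:59293042-59293101, plus strand: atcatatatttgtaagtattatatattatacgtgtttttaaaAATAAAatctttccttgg
Gm47246, inside Naa35, chr13:59605603-59605662, plus strand: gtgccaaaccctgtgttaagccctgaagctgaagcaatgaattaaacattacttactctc
Gm37677, inside Ppp1r12b, chr1:134819916-134819975, minus strand: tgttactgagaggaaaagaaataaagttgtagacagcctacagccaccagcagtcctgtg
Gm44509, nearest gene Nipa1, chr7:55973519-55973578, minus strand: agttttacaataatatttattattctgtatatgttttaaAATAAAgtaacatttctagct
Gm37928, nearest gene Dpyd, chr3:118534954-118535013, plus strand: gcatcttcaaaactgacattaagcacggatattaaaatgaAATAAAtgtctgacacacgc
Gm44645, nearest gene Rgma, chr7:73423843-73423902, plus strand: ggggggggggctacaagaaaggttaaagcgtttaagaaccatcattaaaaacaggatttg
Gm47155, nearest gene Homer1, chr13:93412898-93412957, plus strand: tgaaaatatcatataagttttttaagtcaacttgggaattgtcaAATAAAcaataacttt
Within the last 40 bases the whole signal is present in 1 of the 4 inside and 3 of the 4 outside ends shown. In Gm37677 it runs across the start of that window and was not counted. The inside and outside ends shown were chosen by unlike rules, so these counts do not compare the positions.

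Total counts were 79057998, 124425958 and 78993105 for IKVAV PA + PEDOT-S, IKVAV PA and the PDL control, and protein-coding genes took 98.3% to 98.5% of each. All 10 neuron markers reached 1 CPM, with summed levels of 8370, 8680 and 8440 normalised CPM (counts scaled with trimmed-mean library factors) in the same order. Summed markers of dividing cells stood at 31.0, 32.6 and 102 normalised CPM (6 of 6 reached 1 CPM) and of fibroblasts at 24.2, 53.6 and 136 (6 of 8). Astrocyte markers stood at 252, 237 and 391 (9 of 9), the oligodendrocyte lineage at 97.1, 69.1 and 99.0 (10 of 10), endothelial markers at 3.30, 3.91 and 6.37 (3 of 5) and microglia at 6.48, 6.45 and 5.67 (2 of 8). The oligodendrocyte sum joined markers of opposite direction, 6 higher and 4 lower in IKVAV PA + PEDOT-S than in the PDL control. In the library order above, Olig1 stood at 6.76, 7.04 and 26.6 and Mbp at 53.3, 33.2 and 28.3. Of the 9 astrocyte markers 7 were lower past 1.5-fold in IKVAV PA than in the PDL control and none higher. Slc1a2, the largest of them, stood at 153, 161 and 169. No listed marker was at 0 in all libraries. The part of cell composition in the results below was not tested, and in bulk RNA fewer cells of a type and less RNA per cell cannot be told apart.

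Summed over all 3145 TEC models, with no threshold on level, the IKVAV PA library held the largest share of counts and the IKVAV PA + PEDOT-S library the smallest. The shares were 0.0647% in IKVAV PA + PEDOT-S (exact binomial 95% interval 0.0642% to 0.0653%), 0.0982% in IKVAV PA (0.0977% to 0.0988%) and 0.0788% in the PDL control (0.0782% to 0.0794%). All intervals here cover counting error only, because each group has 1 library and so no replicate spread. PCR copies are not told apart from separate molecules, so the intervals can be too narrow even for counting error. The spread lay mostly in models inside genes. The 1853 inside models summed to 281, 487 and 353 normalised CPM in IKVAV PA + PEDOT-S, in IKVAV PA and in the PDL control, which was 1.74-fold lower in IKVAV PA + PEDOT-S than in IKVAV PA and 1.38-fold higher in IKVAV PA than in the PDL control. The 1170 outside models summed to 275, 359 and 317 normalised CPM, 1.31-fold lower in IKVAV PA + PEDOT-S than in IKVAV PA.

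Among the members, those inside genes had a median level of 1.07 normalised CPM in IKVAV PA + PEDOT-S, 1.91 in IKVAV PA and 1.31 in the PDL control. The lowest and highest of the 96 were 0.192 and 14.9, 0.851 and 15.5, and 0.465 and 13.3 normalised CPM in the same libraries. The IKVAV PA library was the highest of the 3 for 85 of the 96 models, and the IKVAV PA + PEDOT-S library the lowest for 80. Outside members had medians of 1.94, 2.33 and 2.06 normalised CPM, with IKVAV PA highest for 43 of 71 and IKVAV PA + PEDOT-S lowest for 47. The full order, with IKVAV PA above the PDL control and that above IKVAV PA + PEDOT-S, held for 75 of 96 inside members (78.1%), 32 of 71 outside members (45.1%) and 11 of 23 partly overlapping members (47.8%), as against 18.8% of the 13884 genes compared.

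**Figure D1:**
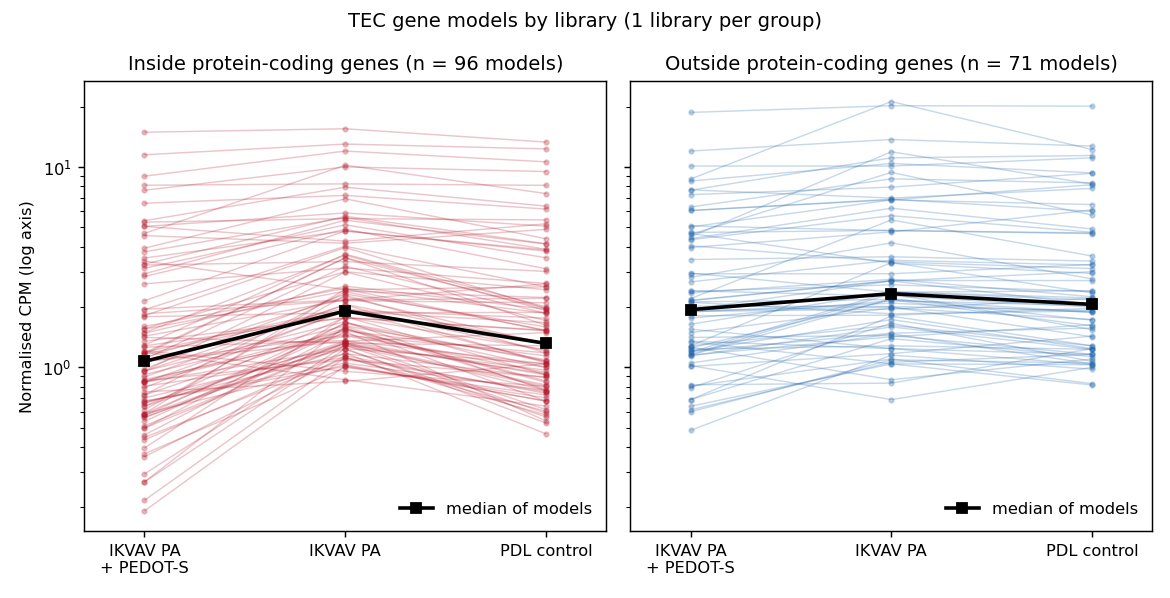
Normalised CPM (log axis) of the 96 members inside and the 71 outside protein-coding genes in the IKVAV PA + PEDOT-S, IKVAV PA and PDL control libraries. Thin lines join 1 model across libraries and black squares are medians. The inside medians are 1.07, 1.91 and 1.31, the outside medians 1.94, 2.33 and 2.06.

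The threshold that chose the members bears on these values. Of the 190, 121 reached 1 CPM in all 3 libraries, 34 only in IKVAV PA, 2 only in IKVAV PA + PEDOT-S and 2 only in the PDL control. Of the 34, 30 lie inside genes, and such models had to be higher in IKVAV PA, so the counts and medians over members below are a description and support nothing by themselves. Just above the threshold stood Gm37893 with 0.367, 1.0 and 0.734 CPM in IKVAV PA + PEDOT-S, IKVAV PA and the PDL control, and Gm37805 with 1.01, 0.691 and 1.01. Just below it stood Gm45853 with 0.493, 0.997 and 0.646 CPM and Gm37277 with 0.987, 0.964 and 0.962. Medians of the models that the threshold left out had the same signs. The 402 inside models under 1 CPM with at least 30 counts in all had median log2 ratios of -1.13 between IKVAV PA + PEDOT-S and IKVAV PA, -0.62 for IKVAV PA + PEDOT-S against the PDL control and 0.54 for IKVAV PA against the PDL control. The 157 outside models of that kind had medians of -0.45, -0.18 and 0.29, and the 5099 other genes under the threshold -0.22, -0.16 and 0.08. The full order of libraries held for 56.2% of the 402, 35.0% of the 157 and 24.3% of the 5099.

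In the PEDOT-S comparison, TEC models inside genes were lower with PEDOT-S. A model was called higher or lower where the whole 95% counting interval (Clopper-Pearson) of its ratio lay past 1.5-fold. By this rule 60 of the 190 members were lower in IKVAV PA + PEDOT-S than in IKVAV PA and none was higher, while 2.02% of the 13884 genes compared were lower and 0.331% higher. The 60 comprise 46 of 96 inside members, 11 of 71 outside and 3 of 23 partly overlapping ones. The median log2 ratio was -0.80 inside and -0.29 outside, against 0.01 for all genes compared. With members chosen on their mean over the libraries instead, 41 of 153 were lower, and with those at 1 CPM in the PDL control library 39 of 152. For these choices, here and in the comparisons below, the share of all genes called was not computed.

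Gm44559 lies in an intron of Ube3a, a ubiquitin ligase gene that is imprinted in neurons, on the opposite strand (chromosome 7, 59262923 to 59263934). It had 21 counts in IKVAV PA + PEDOT-S, 200 in IKVAV PA and 62 in the PDL control, or 0.268, 1.6 and 0.778 normalised CPM. It was 5.64-fold lower in IKVAV PA + PEDOT-S than in IKVAV PA (log2 ratio -2.50, interval -3.30 to -1.93). The level was highest in IKVAV PA, and the counting intervals of the 3 libraries did not overlap.

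Gm44830, on the strand of Ube3a in another of its introns, had 17, 140 and 48 counts in IKVAV PA + PEDOT-S, IKVAV PA and the PDL control (log2 ratio in the PEDOT-S comparison -2.27, interval -3.19 to -1.64). A further Ube3a model on the opposite strand, Gm44562, had 39, 208 and 85 counts (-1.70, interval -2.28 to -1.25). The host Ube3a stood at 174, 174 and 181 normalised CPM in the same libraries. The longest member, 9330162G02Rik with 30942 bases on the opposite strand, overlaps Ube3a in part and shares 5.80% of its bases with other genes. It had 1192, 4608 and 1771 counts, 2.43-fold lower in IKVAV PA + PEDOT-S than in IKVAV PA and 1.66-fold higher in IKVAV PA than in the PDL control. All 4 of these models were lowest in IKVAV PA + PEDOT-S and highest in IKVAV PA. They share a locus and are not independent of each other.

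Gm47246 lies in Naa35, a subunit of an N-terminal acetyltransferase, and had 15, 127 and 54 counts in IKVAV PA + PEDOT-S, IKVAV PA and the PDL control (log2 ratio in the PEDOT-S comparison -2.30, interval -3.29 to -1.63). Gm37677 in Ppp1r12b, a regulatory subunit of myosin phosphatase, had 31, 223 and 73 counts (-2.12, interval -2.77 to -1.63). Gm44667 in Mef2a, a transcription factor of the MEF2 family, had 46, 307 and 121 counts (-2.03, interval -2.55 to -1.62). In each of these the IKVAV PA + PEDOT-S library was the lowest and the IKVAV PA library the highest. The other models of lowest bound were 2610028D06Rik in Cep164, a centriole protein (-2.13), Gm43654 in Ap1ar (-2.06) and B230206I08Rik in Dlg2, the postsynaptic scaffold PSD-93 (-1.87).

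**Figure D2:**
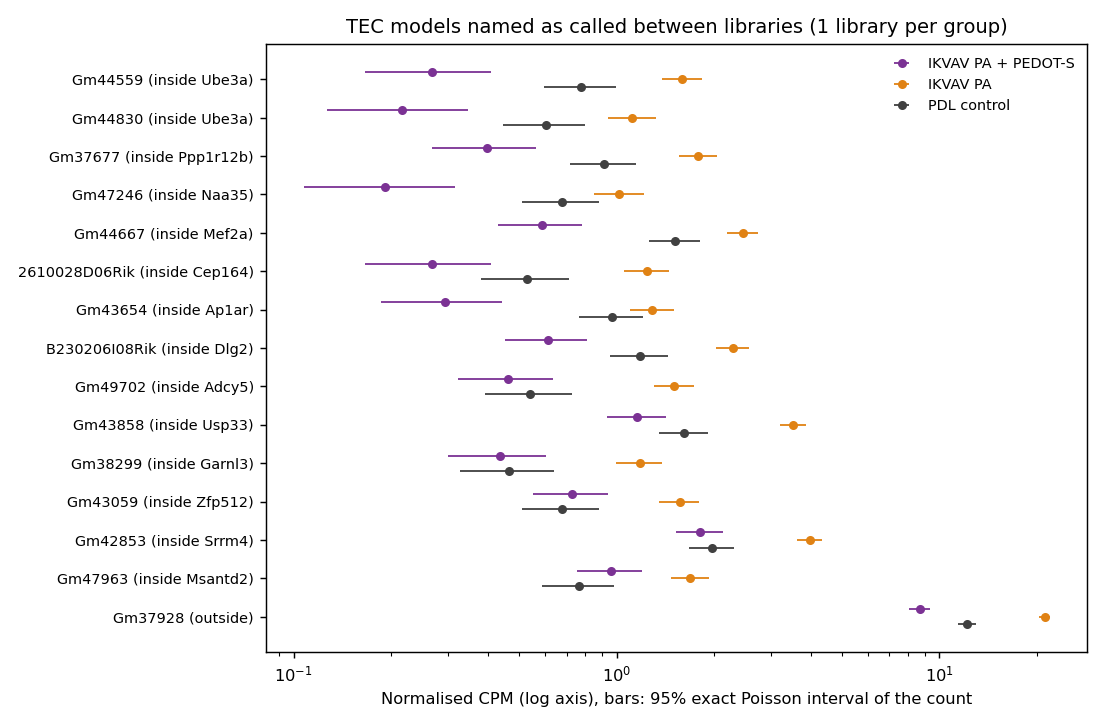
Normalised CPM (log axis) of the 15 members named as lower in the PEDOT-S comparison or higher in IKVAV PA than in the PDL control, in IKVAV PA + PEDOT-S, IKVAV PA and the PDL control, 1 library each. Bars are 95% exact Poisson intervals of the count. The IKVAV PA point is the highest for every model shown, such as 1.6 normalised CPM against 0.268 in IKVAV PA + PEDOT-S for Gm44559.

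IKVAV PA + PEDOT-S also had lower levels of inside models than the PDL control, by less. Of the 190 members 8 were lower and none higher, a share of 4.21%, while 3.76% of all genes compared were lower and 0.447% higher. The share of lower members is thus close to that of all genes, whereas the median log2 ratio was -0.28 inside and -0.14 outside against 0.00 for all genes. Of the 8, 7 lie inside genes. With members chosen on their mean level 4 of 153 were lower. With those at 1 CPM in the PDL control, a choice that favours such calls, 3 of 152 were lower. Gm47246 was 3.24-fold lower (log2 ratio -1.70, interval -2.75 to -0.98) and Gm43654 3.11-fold lower, from 23 counts in IKVAV PA + PEDOT-S against 77 in the PDL control (-1.64, interval -2.46 to -1.03). Gm44667 (-1.33), Gm44559 (-1.45), Gm44830 (-1.37), Gm37677 (-1.16) and Gm44769 in Reep1, which shapes the endoplasmic reticulum (-1.05), were the other inside models. The outside model was Gm32444, with 351 counts in IKVAV PA + PEDOT-S, 1477 in IKVAV PA and 654 in the PDL control (-0.87, interval -1.06 to -0.68).

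IKVAV PA had higher levels of inside TEC models than the PDL control. Of the 190 members 17 were higher and none lower, 15 of the 17 inside genes, while 0.54% of all genes compared were higher and 3.42% lower. The median log2 ratio was 0.52 inside and 0.11 outside, against 0.00 for all genes. With members chosen on their mean level 9 of 153 were higher, and with those at 1 CPM in the PDL control, which works against such calls, 8 of 152. The median of inside members chosen by that control threshold was 0.38.

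Gm49702 in Adcy5, an adenylyl cyclase, had 36, 188 and 43 counts in IKVAV PA + PEDOT-S, IKVAV PA and the PDL control, and was 2.73-fold higher in IKVAV PA than in the PDL control (log2 ratio 1.45, interval 1.0 to 2.0). Gm43858 in Usp33, a deubiquitinating enzyme, had 91, 439 and 129 counts (1.11, interval 0.83 to 1.42). Gm42853 in Srrm4, a splicing regulator of neurons, had 142, 494 and 157 counts (1.0, interval 0.75 to 1.28). In these models the IKVAV PA library stood apart, and in Gm49702 and Gm42853 the other two libraries lay within counting error of each other. Gm38299 in Garnl3 (1.31), Gm43059 in Zfp512 (1.19), 2610028D06Rik (1.21) and Gm47963 in Msantd2 (1.12) were the other inside models of the rule. The outside model Gm37928 had 681, 2646 and 971 counts and was 1.74-fold higher in IKVAV PA than in the PDL control and 2.44-fold lower in IKVAV PA + PEDOT-S than in IKVAV PA. It lies on the plus strand of chromosome 3, 2007 bases before Gm32444, and Dpyd, a pyrimidine-degrading enzyme, is the nearest protein-coding gene to both.

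**Figure D3:**
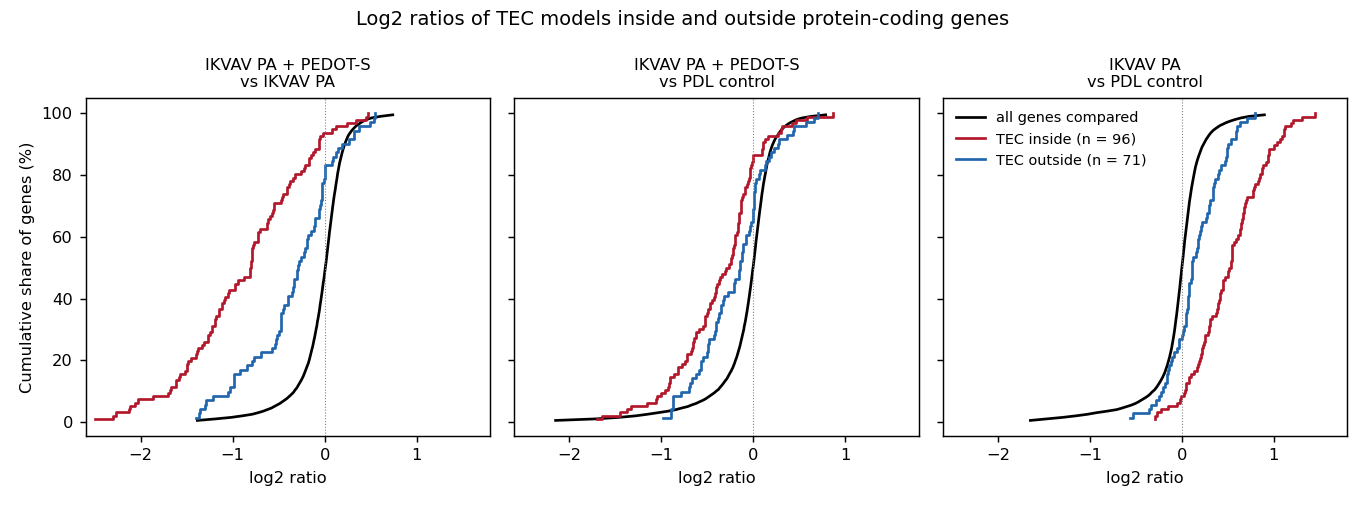
Cumulative share of genes (%) by log2 ratio for the 96 inside members (red), the 71 outside members (blue) and all 13884 genes compared (black), 1 panel per pair of libraries. The red curve lies furthest from the black one, with medians of -0.80, -0.28 and 0.52 for IKVAV PA + PEDOT-S against IKVAV PA, IKVAV PA + PEDOT-S against the PDL control and IKVAV PA against the PDL control.

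The most abundant members differed little between the libraries. Gm42778 in Ttc28 stood at 14.9, 15.5 and 13.3 normalised CPM in IKVAV PA + PEDOT-S, IKVAV PA and the PDL control, Gm42732 in Ociad1 at 11.5, 13.0 and 12.3, and the outside model Gm44509 near Nipa1, a magnesium transporter, at 18.7, 20.2 and 20.1. Gm44645, outside and nearest to Rgma, an axon guidance molecule, stood at 12, 13.7 and 12.7 normalised CPM. Gm43737 in Mtx1, a mitochondrial import protein, stood at 8.99, 12 and 10.6 with 27.7% of its bases shared with other genes, and Gm9954, which overlaps Nwd2, at 11.7, 14.4 and 14.3 with 25.8% shared. All of these lay within the 1.5-fold bound in each comparison, unlike 9330162G02Rik and Gm37928 of the same group. Across the 96 inside members the ratio of IKVAV PA to the PDL control went with the mean level (Spearman's rho -0.46, a description over models of the same libraries). A threshold met in 1 library alone can produce such a relation, and the part of the threshold was not tested. The 16 inside models of at least 5 CPM in 1 library had a median of 0.22 in IKVAV PA against the PDL control and -0.40 in the PEDOT-S comparison.

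The hosts of these models lay close to no difference, as did the median of all genes compared. Of the 88 host genes compared, none was higher or lower than the bound in either comparison with the PDL control, and 1 was lower in IKVAV PA + PEDOT-S than in IKVAV PA. This was Mccc1, a carboxylase subunit of leucine breakdown named here after its values were seen, with 7.10, 12.1 and 9.01 normalised CPM in IKVAV PA + PEDOT-S, IKVAV PA and the PDL control (log2 ratio -0.77). In the PEDOT-S comparison the 93 inside members with a measured host had a median log2 ratio of -0.81 and their hosts one of -0.02. The median difference between member and host was -0.77, with the member below its host in 86 of 93, and the 95% counting interval of the difference lay below 0 in 72 and above 0 in 3. For IKVAV PA + PEDOT-S against the PDL control the median difference was -0.32, with the interval below 0 in 41 and above in 4. For IKVAV PA against the PDL control it was 0.46, with the interval above 0 in 61 and below in 1. Library scaling cancels in these differences. The ratios of members and hosts were weakly related (Spearman's rho 0.16 in the PEDOT-S comparison, 0.20 for IKVAV PA + PEDOT-S against the PDL control and 0.09 for IKVAV PA against it, a description over 93 pairs of the same libraries).

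**Figure D4:**
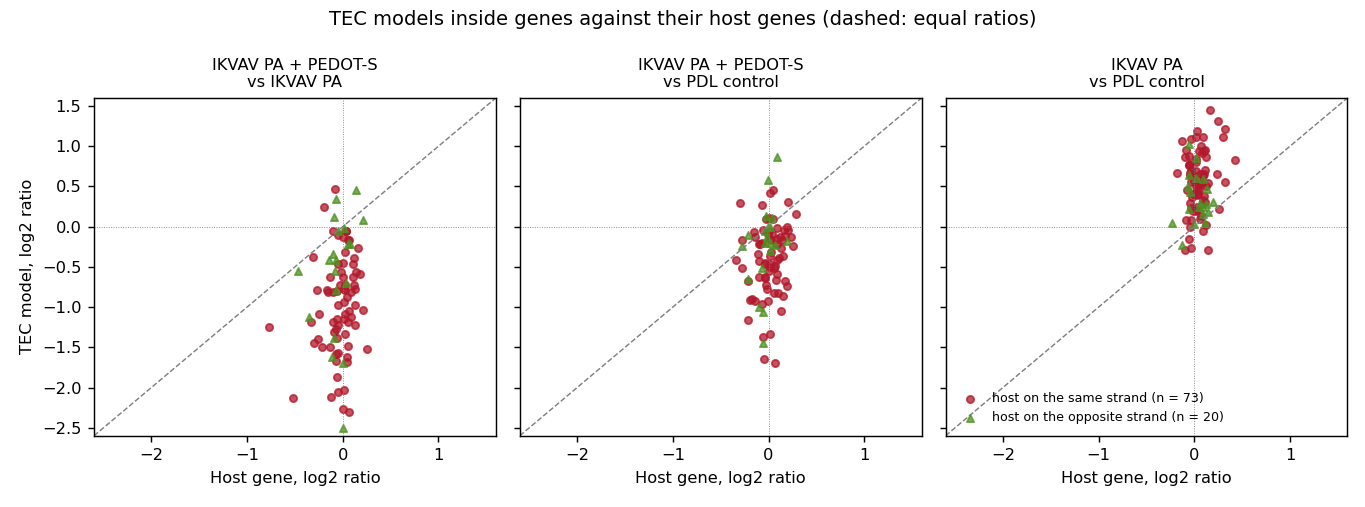
Log2 ratio of each inside member (vertical) against that of its host gene (horizontal) in 3 pairs of libraries, with 73 members on the host's strand (circles) and 20 on the opposite strand (triangles). The points spread along the vertical axis while hosts stay near 0, with a median difference between member and host of -0.77 in the PEDOT-S comparison.

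Among the models furthest from their hosts, Gm44667 had a log2 ratio in the PEDOT-S comparison of -2.03 while Mef2a stood at 144, 143 and 142 normalised CPM in IKVAV PA + PEDOT-S, IKVAV PA and the PDL control (difference -2.04, interval -2.49 to -1.59). Gm45718 in Sec11a, the catalytic subunit of the signal peptidase, had 86, 397 and 148 counts, while Sec11a stood at 36.5, 30.7 and 31.9 normalised CPM (difference -1.77, interval -2.11 to -1.43). Here member and host went in opposite directions in the PEDOT-S comparison, with a host ratio of 0.25. Gm36936 in Nedd4, a ubiquitin ligase, had 101, 457 and 159 counts against a host ratio of 0.05 in the PEDOT-S comparison and -0.10 for IKVAV PA against the PDL control (differences -1.54 and 0.97). A neighbouring model in an earlier intron of Nedd4, Gm7265, had 59, 106 and 83 counts and differed from the host by -0.22 (interval -0.68 to 0.24). Models of 1 host could thus differ from each other. Both models in Kansl1l were lower in IKVAV PA + PEDOT-S than in IKVAV PA, with log2 ratios of -1.38 for Gm38162, which shares 24.2% of its bases with other genes, and -1.31 for Gm37570. In Usp33 Gm43858 (-1.58) passed the bound while Gm43859 on the opposite strand (-0.79) did not. Gm47694 was 1 of 7 inside members with their highest level in the PDL control (1.43, 2.17 and 2.61 normalised CPM in IKVAV PA + PEDOT-S, IKVAV PA and the PDL control). By contrast 9930017N22Rik in Mtdh stood at 0.664, 1.32 and 0.615, highest in IKVAV PA.

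Per kilobase of exon, the 93 inside members whose host reached 1 CPM stood at a median of 8.69% of the level of the host's exons, with the middle 50% of pairs between 3.01% and 16.6%. The range ran from 0.345% for Gm7265 to 291% for 4930466K18Rik on the opposite strand of Mcm9, the only one of the 93 above its host (named after its values were seen). The hosts of the other 3 inside members were under 1 CPM, and of these Gm17244 and Gm37274 also stood above their hosts per kilobase, while the host of Gm45743 was at 0. Members on the host's strand had lower relative levels than those on the opposite strand (medians 7.54% and 12.2%). They also differed more between libraries. The median log2 ratio in the PEDOT-S comparison was -0.97 for 75 same-strand and -0.41 for 21 opposite-strand members, and for IKVAV PA against the PDL control 0.55 and 0.28. The 80 members within introns and the 16 that overlap host exons were alike in direction, with medians of -0.81 and -0.66 in the PEDOT-S comparison.

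The end signal went with the size of the difference among inside members. The 73 without AATAAA in their last 40 bases had a median log2 ratio of -0.97 in the PEDOT-S comparison, with 40 lower, and the 23 with it one of -0.47, with 6 lower. For IKVAV PA against the PDL control the medians were 0.54 and 0.39, and for IKVAV PA + PEDOT-S against the PDL control -0.39 and -0.13. Members with the signal lay more often on the strand opposite to the host than those without it. Opposite-strand inside members had a median of -0.41 in the PEDOT-S comparison and same-strand ones -0.97. The splits by signal and by strand thus overlap, and their separate parts were not tested. Outside genes the medians in the PEDOT-S comparison were -0.31 for the 38 without and -0.29 for the 33 with the signal. Whether the split differs between inside and outside members was not tested. Outside members within 10 kb downstream of a gene on its strand (27) had a median of -0.23 in the PEDOT-S comparison, and the other 44 one of -0.35.

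Other noncoding genes inside protein-coding genes differed by class. The 63 antisense genes inside such spans had median log2 ratios of -0.59 in the PEDOT-S comparison, -0.21 for IKVAV PA + PEDOT-S against the PDL control and 0.38 for IKVAV PA against the PDL control, and 68.3% of them had the order of libraries given above. The 25 genes of the sense-intronic biotype inside genes had medians of -0.30, -0.05 and 0.17, and the 19 lincRNA genes inside genes -0.26, 0.00 and 0.23. The 78 processed pseudogenes inside genes, copies of mRNAs, differed in this, with medians of 0.07, 0.00 and -0.03. The 130 single-exon noncoding genes inside genes that are not TEC models, a class that overlaps those above, had medians of 0.02, -0.01 and 0.02, and 23.1% of them had the order. Outside such spans the medians in the PEDOT-S comparison were -0.17 for 230 lincRNA genes, -0.10 for 9 antisense genes and 0.06 for 265 processed pseudogenes. All these classes passed the same 1 CPM threshold as the members, and its part in their values was not tested.

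**Figure D5:**
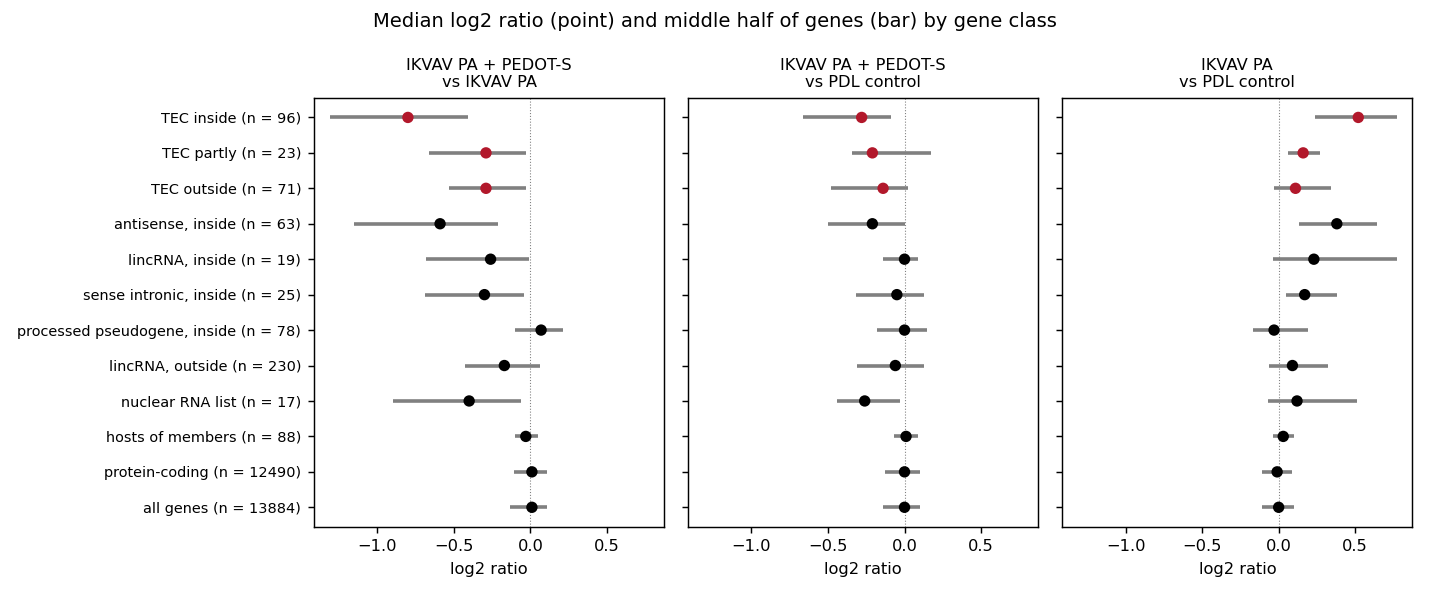
Median log2 ratio (points) and middle 50% of genes (bars) for TEC members by position (red) and other gene classes (black), in 3 pairs of libraries. TEC models inside genes have the medians furthest from 0 (-0.80, -0.28 and 0.52), followed by antisense genes inside genes in the first and last panel (-0.59 and 0.38).

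Of 20 long or nuclear noncoding RNAs and related genes listed for comparison, 17 passed the threshold, Tsix and Nespas did not and 1 had no match by name, and some of them had the order of the TEC models. In the PEDOT-S comparison 6 of the 17 were lower and none higher (35.3% against 2.02% of all genes), with a median of -0.40. Malat1, a nuclear RNA of speckles, stood at 293, 545 and 382 normalised CPM in IKVAV PA + PEDOT-S, IKVAV PA and the PDL control, and Meg3, a nuclear RNA of an imprinted locus, at 920, 1900 and 1260. Kcnq1ot1, an unspliced nuclear RNA that silences neighbouring genes, stood at 20.1, 54.6 and 33.3. In these the IKVAV PA library was the highest and the IKVAV PA + PEDOT-S library the lowest. Rian differed less, at 518, 541 and 530 normalised CPM, and Neat1 stood at 1.25, 1.0 and 1.24, lowest in IKVAV PA. Snhg14, the long imprinted transcript that runs antisense to Ube3a, stood at 87.1, 115 and 106 normalised CPM. In its span lie 3 outside members, picked for that position after their values were seen. In IKVAV PA + PEDOT-S, IKVAV PA and the PDL control A230103L15Rik had 100, 415 and 187 counts, Gm44829 had 54, 224 and 102, and Gm44831 had 47, 136 and 84. Their log2 ratios in the PEDOT-S comparison were -1.37, -1.36 and -0.84, the last within the bound, against -0.40 for Snhg14.

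Among the models nearest to the median pattern of all 190 members over the 3 libraries, by Euclidean distance of centred log2 levels, were Gm48062 in Eml5 (0.029), Gm47572 outside genes (0.046), Gm47483 in Rnf146 (0.061) and C030015A19Rik in Zxdc (0.066). Gm48062 had 5.39, 7.92 and 6.37 normalised CPM in IKVAV PA + PEDOT-S, IKVAV PA and the PDL control. None of these 4 passed the bound in any comparison.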

How the data were processed

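The authors deposited whole-number counts per Ensembl gene for 3 libraries, not normalised. The submitters' processing notes name HTSeq 2.0.2, STAR 2.7.5, DESeq2 1.14.1, cutadapt 4.2 and mm10. How they were combined, strand handling and the annotation used are not stated. Per the labels' protocols libraries came from total RNA with a TruSeq Total RNA kit, while the molecule field reads polyA RNA, and this conflict bears on unspliced RNA.

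GENCODE M21 matched 54165 of 54232 identifiers. A model was inside a gene when its whole span lay in that of a protein-coding gene on either strand, and the host was the same-strand, then the shortest, such gene. Counts were scaled with TMM factors (0.990, 1.0 and 1.01 for IKVAV PA + PEDOT-S, IKVAV PA and PDL control; edgeR 4.0.16, R 4.3.3). Ratios used a prior count of 2. Exact binomial counting intervals (scipy 1.17.1) used a 95% level, and member-host differences a normal interval from the 4 counts. No test across replicates was possible. The code was tested on simulated data. Genes with shared exonic bases are uncertain.

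Members, lists and tests were chosen with earlier results of these data known. Named models are the 8 most abundant, up to 8 called per comparison and direction, models sharing a host, those nearest the threshold or the median pattern and those furthest from their host. From this set a part is described. Of the models nearest the median pattern, 1 is not reported here.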

Additional observations from a re-analysis of the deposited data

How the results depend on the processing

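Over 162 recomputed values of 18 results, 129 stayed close to the reported value. Part of these could not move, because a reported count of 0 stays 0 under a stricter bound or in a subset of the members. The scaling alternatives also differ little from the factors used. The 129 is therefore no measure of how firm the results are. For counts this means within 1.5 times the reported count, where a reported 0 had to stay 0. For medians and summed ratios it means within the 95% interval of the reported value, from order statistics and from counting. None of the recomputed medians and summed ratios had the opposite sign (1 median was 0.00). Counts have no sign and bear on this in no way. For counts of lower members in the PEDOT-S comparison of IKVAV PA + PEDOT-S with IKVAV PA (60), lower members in IKVAV PA + PEDOT-S against the PDL control (8) and higher members in IKVAV PA against the PDL control (17), a 2-fold bound gave 25, 1 and 0. A threshold of 0.5 CPM (346 models) gave 118, 20 and 32, with 2 lower in IKVAV PA against the PDL control. A threshold of 5 CPM (41 models) gave 9, 1 and 2, a mean of at least 1 CPM (153 models) 41, 4 and 9, and at least 1 CPM in the PDL control, chosen after seeing the data, 39, 3 and 8. With no threshold (2251 models) they were 327, 95 and 119, with 6, 11 and 21 in the other direction, and the outside median of IKVAV PA + PEDOT-S against the PDL control was 0.00. The share of all genes called was not computed under these settings, so these counts cannot be set against all genes. At 5 CPM the inside medians in the same order of comparisons were -0.40, -0.12 and 0.22, and the differences from the host -0.31, -0.20 and 0.22. For IKVAV PA against the PDL control the difference from the host was 0.37 with the mean threshold and 0.33 with the control threshold, where the inside median was 0.38. The summed level without scaling factors gave -0.60 in the PEDOT-S comparison and -0.28 for IKVAV PA + PEDOT-S against the PDL control. The other thresholds on level change which models are compared, the 2-fold bound is stricter by construction, and the cause of the differences was not otherwise tested. With the libraries thinned to 1 total, inside medians were -0.93, -0.32 and 0.55, with the same signs as at full depth. No paired analysis was possible because each group has 1 library. The depth limits single models, whose median summed count was 515.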
